A study of Mus musculus with 8 samples.

Results

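Cholesterol and fatty acid synthesis genes, with their SREBP regulators and the sterol efflux transporters, were read in mouse embryonic stem cells, in cells labelled 2C::GFP+, and in 2 chemically treated cultures of 2C::GFP+ cells. The set holds 31 genes out of 55573 rows in the count table. They were picked by symbol, through their Ensembl gene identifiers, and all 31 passed the filter on low counts and were tested among 20608 genes. By role they are 7 enzymes of the mevalonate arm (Acat2, Hmgcs1, Mvk, Pmvk, Mvd, Idi1, Fdps), 11 enzymes of the squalene and sterol arm (Fdft1, Sqle, Lss, Cyp51, Tm7sf2, Msmo1, Nsdhl, Hsd17b7, Ebp, Sc5d, Dhcr7), 6 genes of SREBP control and sterol transport (Srebf1, Srebf2, Insig1, Insig2, Scap, Stard4), 5 of fatty acid synthesis (Acly, Acaca, Fasn, Scd1, Scd2) and 2 of sterol efflux (Abca1, Abcg1).

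The study sequenced polyadenylated RNA from 4 groups of 2 libraries each. The mESC group has the wild-type genotype label and was untreated. The 2C::GFP+ group carries the genotype label 2C::GFP+ and was untreated; its driving sequence and the way positive cells were taken are not stated in the labels. The 2C::GFP+/SGC cells were grown in KnockOut medium (KnockOut serum replacement, amino acids, glutamine and 2-mercaptoethanol) with LIF at 10 ng/ml and SGC0946 at 2 µM, a compound known as an inhibitor of the histone H3 lysine methyltransferase DOT1L. The 2C::GFP+/SA cells were grown in the same base medium with IL6/sIL-6R at 10 ng/ml in place of LIF, with SGC0946 at 2 µM and AS8351 at 2 µM, the latter known as an inhibitor of the histone lysine demethylase KDM5B. Compared with 2C::GFP+/SGC, the 2C::GFP+/SA group therefore differs by AS8351 and by the cytokine, and these cannot be told apart. The mESC cells had LIF at 10 ng/ml and no IL6/sIL-6R. For them the protocol allows either a serum-free medium with LIF and kinase inhibitors or the KnockOut medium. In every comparison with mESC the medium and the group therefore cannot be told apart. Between 2C::GFP+/SA and mESC the cytokine, SGC0946 and AS8351 differ as well, and these cannot be told apart either. No label gives the medium or cytokine of the 2C::GFP+ group by name, so in comparisons of the treated groups with 2C::GFP+ the compounds and the medium or cytokine cannot be told apart either. The 2 columns used for 2C::GFP+ are headed KOSR and were assigned to that group by elimination, since the other 6 columns matched the labels of the other 3 groups. Every comparison with 2C::GFP+ rests on that assignment.

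Cells make cholesterol from acetyl-CoA through mevalonate, farnesyl diphosphate, squalene and lanosterol. SREBP transcription factors, encoded by Srebf1 and Srebf2, are held in the endoplasmic reticulum by SCAP and the INSIG proteins when sterol is plentiful. When membrane sterol falls they are carried to the Golgi, cut free and switch on synthesis and uptake genes, with SREBP2 acting mainly on cholesterol genes and SREBP1 mainly on fatty acid genes. Oxysterol-activated LXR receptors act in the other direction on export, through the transporters ABCA1 and ABCG1, and also raise Srebf1 and Scd1.

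Promoter sequence was available for 24 of the 31 members, as 32 entries of 300 bases that run from 250 bases before to 50 bases after a gene's start (RefSeq, GRCm38.p6). They are described here because SREBP binding to such promoters is well known together with NF-Y at the CCAAT box and Sp1 at the GC box. Searched on both strands, the sterol regulatory element TCACNCCAC was in 1 of 32 member entries (3.12%) and in 1.24% of 32851 promoter entries of the same length. A CCAAT box was in 21 entries (65.6%, against 37.4% of all), and the GC box GGGCGG was in 25 (78.1%, against 35.7% of all). In no member entry did matches to different motifs overlap. In 1 entry, that of Fasn, a CCAAT match on each strand share letters, and both are counted. One promoter per role is shown, chosen to let a reader see these letters in genes the results turn on: Hmgcs1 for the mevalonate arm (chr13:119690101-119690400, plus strand), Nsdhl for the sterol arm (chrX:72918271-72918570, plus strand), Insig1 for SREBP control (chr5:28071162-28071461, plus strand), Fasn for fatty acid synthesis (chr11:120824498-120824797, minus strand) and Abca1 for efflux (chr4:53159846-53160145, minus strand). Each reads 5′ to 3′ along the gene, with motif matches in capitals; a CCAAT match on the other strand reads ATTGG and a GC box reads CCGCCC.
Hmgcs1: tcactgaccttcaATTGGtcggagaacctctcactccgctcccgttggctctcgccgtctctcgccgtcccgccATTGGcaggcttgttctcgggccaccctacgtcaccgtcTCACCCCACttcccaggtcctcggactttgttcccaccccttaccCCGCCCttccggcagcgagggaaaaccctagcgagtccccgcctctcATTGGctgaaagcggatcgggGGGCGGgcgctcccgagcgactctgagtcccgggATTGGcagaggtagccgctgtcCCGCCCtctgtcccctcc
Nsdhl: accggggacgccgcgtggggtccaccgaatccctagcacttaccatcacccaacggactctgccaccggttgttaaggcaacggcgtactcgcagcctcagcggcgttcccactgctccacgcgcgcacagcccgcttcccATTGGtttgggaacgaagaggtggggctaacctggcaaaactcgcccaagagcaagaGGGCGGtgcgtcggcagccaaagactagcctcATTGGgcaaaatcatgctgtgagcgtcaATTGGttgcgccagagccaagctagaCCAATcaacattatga
Insig1: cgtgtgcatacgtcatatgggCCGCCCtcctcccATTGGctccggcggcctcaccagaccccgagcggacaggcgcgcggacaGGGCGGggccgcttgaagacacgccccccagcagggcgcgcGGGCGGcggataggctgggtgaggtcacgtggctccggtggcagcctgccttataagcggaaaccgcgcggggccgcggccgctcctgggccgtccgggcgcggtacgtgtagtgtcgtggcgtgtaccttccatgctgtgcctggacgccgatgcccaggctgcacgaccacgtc
Fasn: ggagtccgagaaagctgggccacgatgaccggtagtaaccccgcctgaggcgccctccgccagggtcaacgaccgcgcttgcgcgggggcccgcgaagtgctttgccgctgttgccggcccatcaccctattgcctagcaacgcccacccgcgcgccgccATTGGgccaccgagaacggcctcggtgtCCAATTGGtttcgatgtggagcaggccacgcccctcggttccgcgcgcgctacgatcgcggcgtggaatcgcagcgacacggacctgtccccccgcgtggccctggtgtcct
Abca1: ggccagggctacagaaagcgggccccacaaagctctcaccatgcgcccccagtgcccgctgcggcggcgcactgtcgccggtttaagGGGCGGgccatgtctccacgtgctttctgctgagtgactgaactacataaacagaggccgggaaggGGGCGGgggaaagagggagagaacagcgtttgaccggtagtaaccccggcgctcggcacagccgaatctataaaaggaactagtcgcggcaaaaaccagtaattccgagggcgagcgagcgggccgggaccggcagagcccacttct
Of the 24 members with an entry, Hmgcs1 is the one whose entry holds the letters TCACNCCAC. Only this spelling of the sterol regulatory element was searched. An element spelled otherwise, or outside the 300 bases, would have been missed. The Fasn entry holds CCAAT letters and no GC box, and the Abca1 entry holds GC boxes and no CCAAT box.

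Library totals ran from 12299931 to 145810034 counted reads. In every group replicate 1 was the deeper library, by 7.46 to 9.62 times, so each group has 1 deep and 1 shallow library. CPM are each gene's reads scaled to a common library total, and are given after TMM scaling unless stated. Before TMM scaling, a count of 3 reads corresponded to 0.0206 to 0.244 CPM, below the level of every member in every library. The summed level of 8 embryonic stem cell markers was 3974 to 4048 CPM for mESC, 4409.5 to 5257.5 for 2C::GFP+, 3788 to 4027 for 2C::GFP+/SGC, and 3782 to 3895 for 2C::GFP+/SA, with none at 0. The sum hides opposite shifts. In 2C::GFP+/SA 5 of the 8 were lower and 1 was higher than in 2C::GFP+, and 4 were lower and 2 higher than in mESC. Esrrb had 864 and 825 CPM for mESC and 340 and 387 for 2C::GFP+/SA. Sox2 had 472 and 537 against 240.5 and 263, and Tdgf1 had 380 and 476 against 1082 and 1456.5. The 7 markers of the 2-cell-like state summed to 2.36 to 7.24 CPM for mESC, 450.3 to 584 for 2C::GFP+, 1099.8 to 1193 for 2C::GFP+/SGC, and 2091 to 5483.5 for 2C::GFP+/SA. The 8 primitive endoderm markers summed to 214 to 317 CPM for mESC, 66.0 to 71.1 for 2C::GFP+, 53.9 to 64.8 for 2C::GFP+/SGC, and 157 to 317 for 2C::GFP+/SA. Lama1 made up most of the mESC sum, at 208.9 and 310.6 CPM, and 7 of the 8 were higher in 2C::GFP+/SA than in 2C::GFP+ (the exception was Dab2, adjusted p = 0.0586) and than in mESC (the exception was Lama1, adjusted p = 0.123). Pdgfra, for one, had 1.65 and 0.924 CPM for mESC and 19.4 and 31.4 for 2C::GFP+/SA. The 10 fibroblast (feeder) markers summed to 3238 to 3398.5, 2054 to 2058, 1611 to 1946 and 1295 to 1300.4 CPM in the same order, with S100a4 at 0 throughout. Most of that sum was Fn1, at 2474 and 2939 CPM for mESC and 991 and 984 for 2C::GFP+/SA, and Vim. Of the 6 fibroblast markers tested, Fn1 and Vim were lower in 2C::GFP+/SA than in 2C::GFP+ and Col1a1, Col1a2 and Thy1 were higher; against mESC the same 2 were lower and Col1a1, Thy1 and Dcn were higher. Thy1 had 3.1 and 3.44 CPM for mESC and 23.2 and 17.5 for 2C::GFP+/SA. Hepatocyte markers, added because sterol genes are high in liver, summed to at most 0.1 CPM in any library. The part of these marker shifts in the member results was not tested, and in bulk RNA fewer cells of a type and less RNA per cell cannot be told apart.

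In 2C::GFP+ cells, compared with mESC, 12 of the 31 members were lower and 0 were higher. They were the desaturases Scd1 and Scd2, Fasn, the efflux transporters Abca1 and Abcg1, Srebf1, Insig1, Stard4 and 4 enzymes of the sterol arm, while none of the 7 mevalonate arm enzymes was called. Among all tested genes 9.12% were lower and 15.2% were higher (edgeR quasi-likelihood test, Benjamini-Hochberg adjusted p under 0.05, as for every call that follows). The members' median log2 fold change was -0.44, beside 0.04 over all tested genes. The largest falls were in Abcg1, Scd1 and Scd2.

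The 2C::GFP+/SGC culture gave no call among the members: 0 of 31 were lower and 0 were higher than in 2C::GFP+. The background in this edgeR fit was also 0% lower and 0% higher of all tested genes, with 2037 genes (9.88%) at an unadjusted p under 0.05. Some other edgeR fits did call genes. With a replicate block 87 of 20608 were lower and 197 higher. With only the 4 libraries compared, 77 of 19656 were lower and 249 higher, and without a low-count filter 110 of 36057 were lower and 389 higher. DESeq2 called 0.312% of the genes it tested lower and 1.37% higher, and among the members it called Abcg1 higher (adjusted p = 0.0289). The sign was negative for 24 members, with a median log2 fold change of -0.16 beside 0.03 over all tested genes. For 7 members the unadjusted p was under 0.05.

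In 2C::GFP+/SA, grown with SGC0946, AS8351 and IL6/sIL-6R, 18 members were lower and 3 were higher than in untreated 2C::GFP+ cells. The lower genes included 11 of the 18 cholesterol synthesis enzymes, Srebf2, Insig1, Stard4 and 4 of the 5 fatty acid genes, and the higher genes were Dhcr7, Scap and Abcg1. Over all tested genes 13.8% were lower and 14.9% were higher. The members' median was -0.55 on the log2 scale, beside 0.01 over all tested genes. Against 2C::GFP+/SGC, a comparison free of the columns assigned by elimination, 12 members were lower and 1, Scap, was higher, with a median of -0.32 beside -0.02. There the background was 8.18% lower and 7.92% higher. Across the whole span from mESC to 2C::GFP+/SA, 25 members were lower and 1 (Scap) was higher, with a median of -1.16 beside 0.03, in a background of 20.1% lower and 25% higher. Mvd, Cyp51, Hsd17b7, Dhcr7 and Insig2 were not called over that span.

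**Figure D1:**
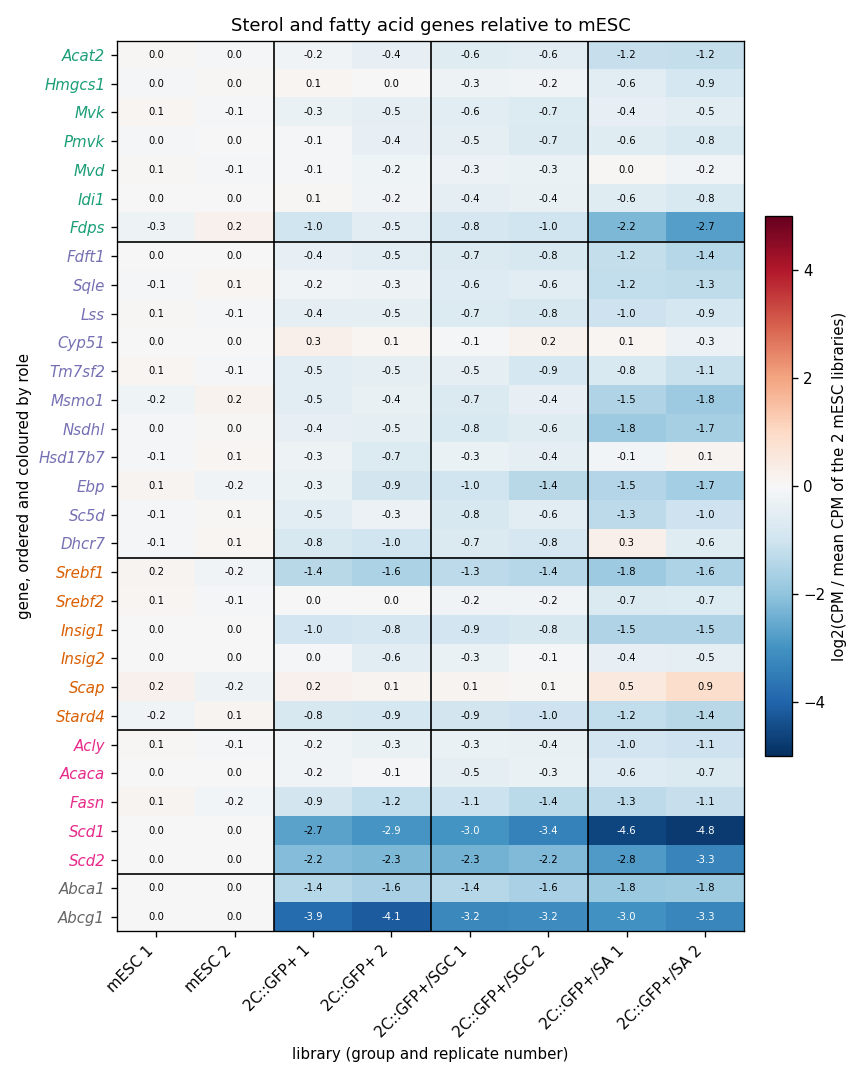
Each row is 1 of the 31 members and each column 1 of the 8 libraries; colour and printed value give the log2 ratio of the library's CPM to the mean CPM of the 2 mESC libraries, with rows grouped and coloured by role. Scd1, Scd2 and Abcg1 are low in all 6 libraries outside mESC, while most sterol synthesis enzymes are lowest in the 2 2C::GFP+/SA libraries.

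The depth gap was handled by looking at same-numbered libraries alone, as a description with no test. Between 2C::GFP+ and mESC, 27 of 31 members were lower in the deep pair and 28 in the shallow pair, where 47.1% and 45.6% of all tested genes were lower. Between 2C::GFP+/SA and 2C::GFP+ the counts were 26 and 23, against 51% and 49.1%. For 2C::GFP+/SA and 2C::GFP+/SGC they were 24 and 25, against 52.1% and 50.1%. The direction of the member sets was thus the same in the deep and in the shallow libraries.

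No enzyme of the mevalonate arm was called in 2C::GFP+ cells against mESC, and 4 of the 7 were lower in 2C::GFP+/SA than in 2C::GFP+ cells. Acat2 (chr17:12942890-12960747, minus strand), the cytosolic thiolase that joins acetyl-CoA units at the start of the pathway, stood at 118 and 110.3 CPM for mESC, 100.1 and 85.3 for 2C::GFP+, 74.2 and 76.5 for 2C::GFP+/SGC, and 51.2 and 50.5 for 2C::GFP+/SA. The 4 groups did not overlap and stepped down in that order. Between 2C::GFP+/SA and 2C::GFP+ its log2 fold change was -0.87 ± 0.13 (SE, adjusted p = 0.000319), and between 2C::GFP+/SA and 2C::GFP+/SGC it was -0.57 ± 0.13 (adjusted p = 0.0104). Acat2 shares 43.7% of its 31-base stretches with other genes, the most with its near copy Acat3, which was at 0.217 to 0.678 CPM.

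Hmgcs1 (chr13:119690379-119708260, plus strand) makes HMG-CoA and is a classic SREBP2 target. Its levels were 197 and 210.1 CPM for mESC, 219.6 and 207 for 2C::GFP+, 169 and 182 for 2C::GFP+/SGC, and 136 and 110.4 for 2C::GFP+/SA. mESC and 2C::GFP+ overlapped (log2 fold change 0.07 ± 0.13, adjusted p = 0.748), and the 2C::GFP+/SA libraries lay below all others. The fold change of 2C::GFP+/SA was -0.79 ± 0.13 against 2C::GFP+ (adjusted p = 0.00068) and -0.51 ± 0.13 against 2C::GFP+/SGC (adjusted p = 0.0194). An antisense gene, Gm48342, covers 12.1% of Hmgcs1 exon bases and was at 0 to 0.272 CPM.

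Fdps (chr3:89093588-89101959, minus strand), which makes farnesyl diphosphate, was the lowest member by TPM (the authors' unit, scaled by gene length) in mESC, at 4.93, where Hmgcs1 was at 147. Its levels were 5.21 and 7.19 CPM for mESC, 3.07 and 4.28 for 2C::GFP+, 3.49 and 3.13 for 2C::GFP+/SGC, and 1.31 and 0.924 for 2C::GFP+/SA. It was 3.1-fold lower in 2C::GFP+/SA than in 2C::GFP+ (-1.63 ± 0.38, adjusted p = 0.00625) and 2.85-fold lower than in 2C::GFP+/SGC (-1.51 ± 0.38, adjusted p = 0.0169), on the log2 scale. Its level is uncertain, since 26.7% of its exon bases lie within Gm43738 on the same strand, listed at 0 in all libraries, and 27.9% of its 31-base stretches occur in other genes.

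The other 4 members of this arm differed less between these 2 groups. Idi1, the isomerase that makes the allylic building block, was lower in 2C::GFP+/SA than in 2C::GFP+ (16.3 ± 1.39 against 25.4 ± 2.91 CPM, SD, n = 2, log2 fold change -0.64 ± 0.18, adjusted p = 0.0161). It shares 27.1% of its 31-base stretches with other genes, the most with Gm13502. Pmvk, the phosphomevalonate kinase, was at 24.6 ± 2.11 CPM against 33.2 ± 5.78 (SD, n = 2, adjusted p = 0.0785), and was called lower with a replicate block (adjusted p = 0.0436). Mvk, the mevalonate kinase, was at 29.2 ± 1.89 against 30.8 ± 2.13 (adjusted p = 0.773), and Mvd, the decarboxylase, at 57.8 ± 5.87 against 55.0 ± 3.69 (adjusted p = 0.74). Within this arm, therefore, the genes called in 2C::GFP+/SA were Acat2, Hmgcs1, Idi1 and Fdps, and the 2 kinases and the decarboxylase between them were not called. In 2C::GFP+ against mESC the smallest adjusted p in the arm was that of Mvk, at 0.0854 (log2 fold change -0.40 ± 0.16). With a replicate block Mvk was called lower there (adjusted p = 0.049).

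The squalene and sterol arm was lower in part in 2C::GFP+ cells and more widely in 2C::GFP+/SA cells. In 2C::GFP+ against mESC 4 of 11 enzymes were lower (Fdft1, Lss, Nsdhl, Dhcr7), in 2C::GFP+/SA against 2C::GFP+ 7 were lower and 1 was higher, and in 2C::GFP+/SA against 2C::GFP+/SGC 4 were lower (Fdft1, Sqle, Msmo1, Nsdhl). In 2C::GFP+ against mESC, Ebp (-0.58 ± 0.22, adjusted p = 0.0699) and Msmo1 (-0.44 ± 0.17, adjusted p = 0.0705) were not called but were lower in 8 and 5 of 16 alternatives (adjusted p = 0.00709 to 0.0478 and 0.0175 to 0.0487). Both were called without 2C::GFP+/SGC replicate 2 or 2C::GFP+/SA replicate 2, and Ebp also without 2C::GFP+ replicate 1. Tm7sf2 was lower there in 3 alternatives, 1 of them without 2C::GFP+/SA replicate 2 (adjusted p = 0.0421). The arm's median log2 fold changes were -0.44, -0.75 and -0.39 in these comparisons.

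Nsdhl (chrX:72918557-72958514, plus strand), a dehydrogenase that removes methyl groups from the sterol ring, showed the smallest adjusted p of the arm in 3 comparisons. Its levels were 53.3 and 56.7 CPM for mESC, 41.4 and 39.4 for 2C::GFP+, 32.5 and 35.7 for 2C::GFP+/SGC, and 15.7 and 17.2 for 2C::GFP+/SA. No group overlapped another. It was 2.47-fold lower in 2C::GFP+/SA than in 2C::GFP+ (-1.31 ± 0.15, adjusted p = 5.34e-05), 2.08-fold lower than in 2C::GFP+/SGC (-1.06 ± 0.15, adjusted p = 0.000546) and 3.36-fold lower than in mESC (-1.75 ± 0.16, adjusted p = 1.12e-06). Between 2C::GFP+ and mESC it was 1.36-fold lower (-0.44 ± 0.15, adjusted p = 0.044).

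Msmo1 (chr8:64718139-64733792, minus strand), the oxidase that acts just before Nsdhl on the same methyl groups, had 94.2 and 122 CPM for mESC, 75.1 and 84.0 for 2C::GFP+, 65.4 and 81.8 for 2C::GFP+/SGC, and 38.1 and 30.7 for 2C::GFP+/SA. The 2C::GFP+ and 2C::GFP+/SGC libraries overlapped, and those of 2C::GFP+/SA lay below all others. Its fold change in 2C::GFP+/SA was -1.20 ± 0.17 on the log2 scale against 2C::GFP+ (adjusted p = 0.000211) and -1.09 ± 0.17 against 2C::GFP+/SGC (adjusted p = 0.000947). Sqle (chr15:59315077-59331192, plus strand), squalene epoxidase and a rate-controlling step, followed the same order. It had 151 and 170.4 CPM for mESC, 141 and 134 for 2C::GFP+, 104 and 109 for 2C::GFP+/SGC, and 67.7 and 66.7 for 2C::GFP+/SA. It was 2.04-fold lower in 2C::GFP+/SA than in 2C::GFP+ (-1.03 ± 0.12, adjusted p = 6e-05) and 1.58-fold lower than in 2C::GFP+/SGC (-0.66 ± 0.12, adjusted p = 0.00282).

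Fdft1 (chr14:63145150-63179578, minus strand), squalene synthase, is the first enzyme committed to sterols. It had 168 and 174 CPM for mESC, 129 and 119 for 2C::GFP+, 104 and 97.6 for 2C::GFP+/SGC, and 74.1 and 62.8 for 2C::GFP+/SA, and no group overlapped another. The log2 fold change was -0.46 ± 0.13 in 2C::GFP+ against mESC (adjusted p = 0.0166), -0.86 ± 0.13 in 2C::GFP+/SA against 2C::GFP+ (adjusted p = 0.000297) and -0.56 ± 0.13 against 2C::GFP+/SGC (adjusted p = 0.0101). Ctsb, which covers 18.3% of Fdft1 exon bases on the opposite strand, had 249.7 and 263, 112 and 103, 101 and 102, and 98.4 and 91.1 CPM in the same order. No label states the strand setting of the counting, so reads from the shared stretch could belong to either gene.

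Dhcr7 (chr7:143823145-143848410, plus strand), the reductase that yields cholesterol in the last step of one branch, was the member of the arm called higher in 2C::GFP+/SA against 2C::GFP+. It had 124 and 139.5 CPM for mESC, 74.8 and 66.5 for 2C::GFP+, 80.7 and 74.4 for 2C::GFP+/SGC, and 158 and 87.5 for 2C::GFP+/SA. The 2 2C::GFP+/SA libraries are far apart, and they bracket both mESC libraries. The fall in 2C::GFP+ was -0.90 ± 0.23 on the log2 scale (adjusted p = 0.0194), and the rise from 2C::GFP+ to 2C::GFP+/SA was 0.80 ± 0.23 (adjusted p = 0.0276). Without 2C::GFP+/SA replicate 1 that rise was 0.33 (adjusted p = 0.127), and leaving out mESC replicate 2, 2C::GFP+ replicate 1 or 2, or 2C::GFP+/SGC replicate 2 also ended the call (adjusted p = 0.108, 0.11, 0.282 and 0.114). Without 2C::GFP+/SA replicate 2 it was higher in 2C::GFP+/SA than in 2C::GFP+/SGC (1.05, adjusted p = 2.52e-06), and without replicate 1 it was lower in 2C::GFP+/SA than in mESC (-0.56, adjusted p = 0.0111), so the calls on Dhcr7 depend on which of these 2 libraries is used.

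Lss, Ebp and Sc5d were lower in 2C::GFP+/SA than in 2C::GFP+ by smaller or noisier steps. Lss, lanosterol synthase, had 47.8 ± 3.33 against 67.8 ± 1.32 CPM (SD, n = 2, adjusted p = 0.011). Ebp, the sterol isomerase, had 16.5 ± 1.86 against 32.5 ± 9.71 (adjusted p = 0.00563), and Sc5d, the sterol desaturase, had 13.9 ± 1.91 against 23.3 ± 2.73 (adjusted p = 0.00973). Cyp51, the lanosterol demethylase, had 93.2 ± 17.8 against 113 ± 7.96 (adjusted p = 0.184) and was called lower without 2C::GFP+/SA replicate 1 (adjusted p = 0.045). Tm7sf2, a sterol reductase, had 14.3 ± 2.5 against 19.1 ± 0.137 (adjusted p = 0.171). It shares 13.3% of its 31-base stretches with other genes, the most with its neighbour Vps51. Hsd17b7, a ketosteroid reductase, had 20.0 ± 2.72 against 14.6 ± 2.94 (adjusted p = 0.142), a positive difference that was not called.

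Among the regulators, Srebf1 was called lower between mESC and 2C::GFP+, and Srebf2 between 2C::GFP+ and 2C::GFP+/SA. Srebf1 (chr11:60199089-60222581, minus strand) had 281 and 224 CPM for mESC, 96.5 and 84.6 for 2C::GFP+, 101 and 93.7 for 2C::GFP+/SGC, and 70.7 and 85.7 for 2C::GFP+/SA. The mESC libraries lay far above the other 6. The 2C::GFP+ libraries overlapped those of both treated groups, and both 2C::GFP+/SGC libraries lay above both of 2C::GFP+/SA. In 2C::GFP+ it was 2.78-fold lower than in mESC (log2 fold change -1.48 ± 0.15, adjusted p = 9.97e-06), whereas 2C::GFP+/SA against 2C::GFP+ gave -0.22 ± 0.15 (adjusted p = 0.302).

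Srebf2 (chr15:82147181-82205379, plus strand) encodes the factor that acts mainly on cholesterol genes. It had 433.5 and 377 CPM for mESC, 415 and 414 for 2C::GFP+, 363 and 360.3 for 2C::GFP+/SGC, and 242.5 and 252 for 2C::GFP+/SA. The mESC pair enclosed the 2C::GFP+ pair (log2 fold change 0.03 ± 0.12, adjusted p = 0.883), and the 2C::GFP+/SA libraries lay below all others. It was 1.68-fold lower in 2C::GFP+/SA than in 2C::GFP+ (-0.75 ± 0.12, adjusted p = 0.000589) and 1.46-fold lower than in 2C::GFP+/SGC (-0.55 ± 0.12, adjusted p = 0.00842).

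Insig1 (chr5:28071363-28078662, plus strand), the retention factor that SREBP itself induces, fell at both steps. Its levels were 136 and 129.5 CPM for mESC, 67.9 and 74.0 for 2C::GFP+, 69.0 and 75.4 for 2C::GFP+/SGC, and 47.1 and 46.4 for 2C::GFP+/SA. The 2C::GFP+ and 2C::GFP+/SGC libraries overlapped and the other groups stood apart. The log2 fold change was -0.91 ± 0.13 in 2C::GFP+ against mESC (adjusted p = 0.000165), -0.60 ± 0.13 in 2C::GFP+/SA against 2C::GFP+ (adjusted p = 0.00338) and -0.63 ± 0.13 against 2C::GFP+/SGC (adjusted p = 0.00504). Insig2, its relative, which is not an SREBP target, had 14.3 and 13.6 CPM in 2C::GFP+/SA and 18.8 and 19.2 in mESC (adjusted p = 0.113) and was called in no comparison.

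Scap, which escorts SREBP to the Golgi, was the member that was higher in 2C::GFP+/SA against each other group. It had 45.2 and 32.9 CPM for mESC, 45.7 and 42.6 for 2C::GFP+, 42.4 and 41.2 for 2C::GFP+/SGC, and 55.3 and 72.3 for 2C::GFP+/SA, whose libraries lay above all others. Its log2 fold change was 0.52 ± 0.18 against 2C::GFP+ (adjusted p = 0.0392), 0.60 ± 0.18 against 2C::GFP+/SGC (adjusted p = 0.0333) and 0.70 ± 0.18 against mESC (adjusted p = 0.00544). Each of these calls ended with both limma fits on TPM. The limma adjusted p was 0.237 and 0.3 against 2C::GFP+, 0.294 and 0.37 against 2C::GFP+/SGC, and 0.0814 and 0.121 against mESC. Leaving out 2C::GFP+ replicate 1 or 2 or 2C::GFP+/SA replicate 2 ended the call against 2C::GFP+ (adjusted p = 0.103, 0.132 and 0.195). Leaving out 2C::GFP+/SGC replicate 1 or 2 or 2C::GFP+/SA replicate 2 ended that against 2C::GFP+/SGC (adjusted p = 0.128, 0.109 and 0.138), and without mESC replicate 2 the adjusted p against mESC was 0.07. An antisense gene, 5830462I19Rik, covers 13.2% of Scap exon bases and was at 0 to 0.136 CPM. Stard4, a cytosolic sterol carrier and SREBP2 target, had 81.6 ± 11.8 CPM for mESC, 46.1 ± 1.79 for 2C::GFP+, 41.5 ± 2.82 for 2C::GFP+/SGC, and 32.8 ± 2.44 for 2C::GFP+/SA (SD, n = 2). It was lower in 2C::GFP+ than in mESC (-0.82 ± 0.15, adjusted p = 0.00119) and in 2C::GFP+/SA than in 2C::GFP+ (-0.48 ± 0.15, adjusted p = 0.0263). The latter call ended with DESeq2, RLE scaling or no low-count filter (adjusted p = 0.1, 0.0666 and 0.0518). Both limma fits and the fit of only the 4 libraries compared also ended it (adjusted p = 0.0889, 0.136 and 0.0505).

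**Figure D2:**
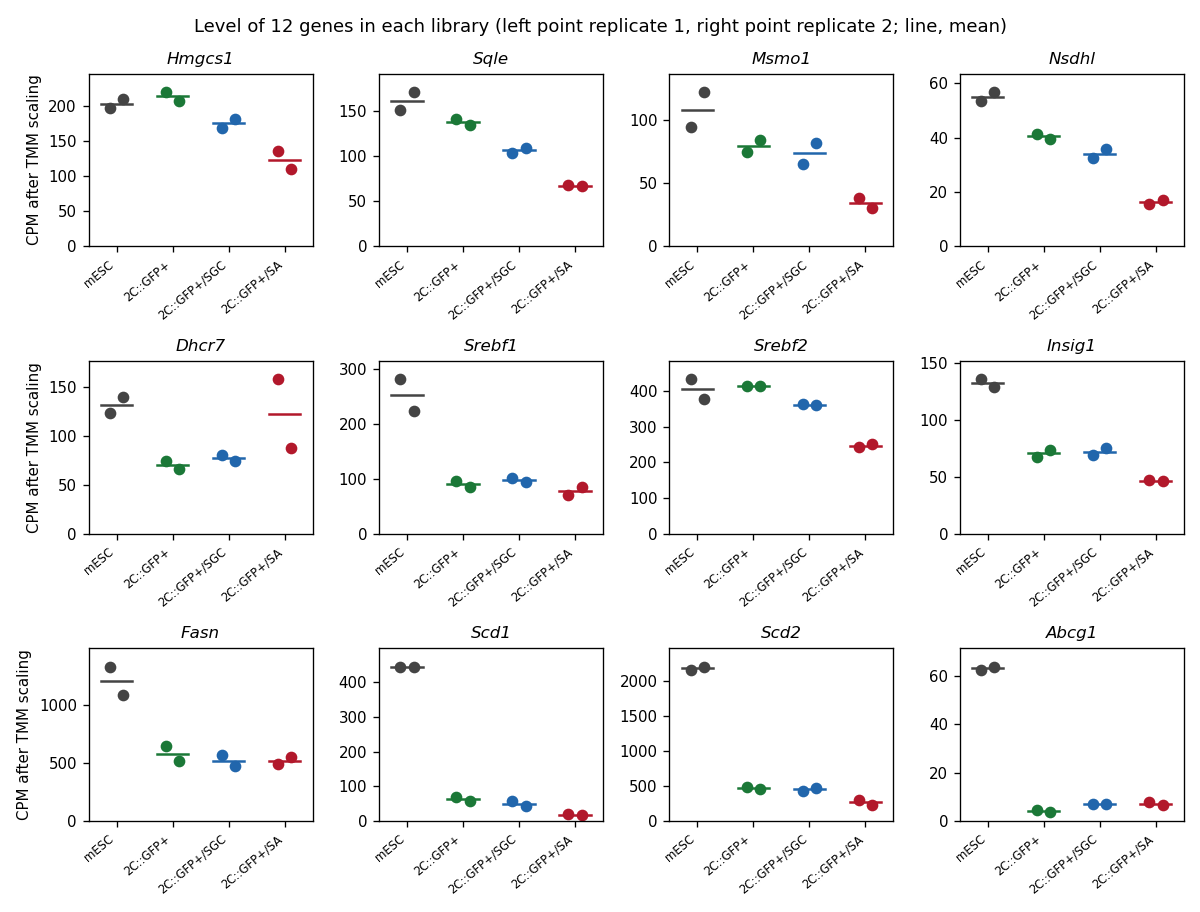
CPM after TMM scaling (linear axes from 0) of 12 members in the 4 groups; points are single libraries and lines are means of 2. Srebf1, Fasn, Scd1, Scd2 and Abcg1 drop between mESC and 2C::GFP+, and Dhcr7 has 158 and 87.5 CPM in the 2 2C::GFP+/SA libraries. Hmgcs1 and Srebf2 are lowest in 2C::GFP+/SA and are not called in 2C::GFP+/SGC against 2C::GFP+.

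Fatty acid synthesis genes fell furthest at the desaturases. Scd1 (chr19:44394455-44407879, minus strand), which makes oleate and palmitoleate and is a shared SREBP1 and LXR target, had 445.5 and 445.6 CPM for mESC, 69.1 and 58.3 for 2C::GFP+, 56.2 and 42.8 for 2C::GFP+/SGC, and 18.6 and 16.1 for 2C::GFP+/SA. Every 2C::GFP+/SA library lay below every other library, and the mESC libraries lay above all. It was 6.98-fold lower in 2C::GFP+ than in mESC (log2 fold change -2.80 ± 0.16, adjusted p = 5.1e-08), 3.65-fold lower in 2C::GFP+/SA than in 2C::GFP+ (-1.87 ± 0.16, adjusted p = 6.42e-06), 2.85-fold lower than in 2C::GFP+/SGC (-1.51 ± 0.16, adjusted p = 7.9e-05) and 25.5-fold lower than in mESC (-4.67 ± 0.17, adjusted p = 1.54e-09). By the authors' TPM, Scd1 ranked 4 among the 31 members in mESC (303 TPM) and 26 in 2C::GFP+/SA (11.4 TPM).

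Scd2 (chr19:44293674-44306864, plus strand), the paralog that was the highest member in mESC at 1323 TPM, had 2150.3 and 2200.7 CPM for mESC, 478 and 454 for 2C::GFP+, 428.5 and 470.2 for 2C::GFP+/SGC, and 304 and 219.8 for 2C::GFP+/SA. It was 4.67-fold lower in 2C::GFP+ than in mESC (-2.22 ± 0.16, adjusted p = 4.92e-07) and 1.78-fold lower in 2C::GFP+/SA than in 2C::GFP+ (-0.83 ± 0.15, adjusted p = 0.00119). Against 2C::GFP+/SGC it was 1.71-fold lower (-0.78 ± 0.15, adjusted p = 0.00369). A further paralog, Scd3, which is no member, shares sequence with both (8.18% of Scd1 and 6.81% of Scd2 31-base stretches recur in other genes, the most in Scd3). Scd3 had 2.78 and 2.72 CPM for mESC, 12.9 and 12.9 for 2C::GFP+, 34.9 and 30.5 for 2C::GFP+/SGC, and 211 and 112 for 2C::GFP+/SA, the opposite direction to Scd1 and Scd2. It was named after its values were seen, and the part of shared reads in these 3 genes was not tested.

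Fasn (chr11:120805846-120824547, minus strand), fatty acid synthase, was called lower in 2C::GFP+ against mESC and not in 2C::GFP+/SA against 2C::GFP+. It had 1332 and 1089 CPM for mESC, 648 and 514 for 2C::GFP+, 567 and 473.5 for 2C::GFP+/SGC, and 489 and 548 for 2C::GFP+/SA. The mESC libraries lay above the rest and the other 3 groups overlapped. In 2C::GFP+ the log2 fold change against mESC was -1.06 ± 0.16 (adjusted p = 0.000263), and in 2C::GFP+/SA against 2C::GFP+ it was -0.17 ± 0.16 (adjusted p = 0.472).

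Acly (chr11:100476353-100528000, minus strand), which supplies cytosolic acetyl-CoA to both pathways, was called lower in 2C::GFP+/SA against 2C::GFP+ and not in 2C::GFP+ against mESC. It had 909.7 and 819 CPM for mESC, 772 and 678.5 for 2C::GFP+, 681 and 663 for 2C::GFP+/SGC, and 446 and 416.5 for 2C::GFP+/SA, whose libraries lay below all others. Between 2C::GFP+ and mESC the log2 fold change was -0.25 ± 0.13 (adjusted p = 0.166), and between 2C::GFP+/SA and 2C::GFP+ it was -0.75 ± 0.13 (adjusted p = 0.000752). Acaca, acetyl-CoA carboxylase, had 69.0 ± 2.66 CPM in 2C::GFP+/SA against 101 ± 4.37 in 2C::GFP+ (SD, n = 2, adjusted p = 0.00513) and 111 ± 4.07 in mESC. Acaca shares 33.5% of its 31-base stretches with other genes, 3158 in all. Gm5182, which shares the most, was at 1.03 to 2.07 CPM, and the levels of the others were not read.

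Both efflux genes were lower in 2C::GFP+ than in mESC, and in 2C::GFP+/SA against 2C::GFP+ only Abcg1 was called. Whether the changes of these genes differ from each other was not tested. Abcg1 (chr17:31057675-31117988, plus strand), which exports cholesterol to lipoprotein particles, had 62.4 and 64.0 CPM for mESC, 4.34 and 3.56 for 2C::GFP+, 6.79 and 7.07 for 2C::GFP+/SGC, and 7.75 and 6.63 for 2C::GFP+/SA. All 4 treated libraries lay above both 2C::GFP+ libraries and far below mESC. It was 15.7-fold lower in 2C::GFP+ than in mESC (-3.97 ± 0.21, adjusted p = 2.76e-08), the largest fold change of any member in that comparison. In 2C::GFP+/SA it was 1.81-fold higher than in 2C::GFP+ (0.85 ± 0.20, adjusted p = 0.00551), a call that ended when only the 4 libraries compared were fitted (adjusted p = 0.0616). In 2C::GFP+/SGC it was 1.72-fold higher than in 2C::GFP+ (0.78 ± 0.20, adjusted p = 0.221), or adjusted p = 0.0304 without 2C::GFP+/SA replicate 2, and 2C::GFP+/SA against 2C::GFP+/SGC gave 0.07 ± 0.19 (adjusted p = 0.856). Abca1 (chr4:53030787-53159895, minus strand), which loads cholesterol on apolipoprotein A-I, had 65.7 and 68.8 CPM for mESC, 24.9 and 21.9 for 2C::GFP+, 25.3 and 22.0 for 2C::GFP+/SGC, and 18.8 and 19.6 for 2C::GFP+/SA. It was 2.86-fold lower in 2C::GFP+ than in mESC (-1.52 ± 0.16, adjusted p = 1.33e-05), and in 2C::GFP+/SA against 2C::GFP+ its log2 fold change was -0.29 ± 0.16 (adjusted p = 0.193).

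**Figure D3:**
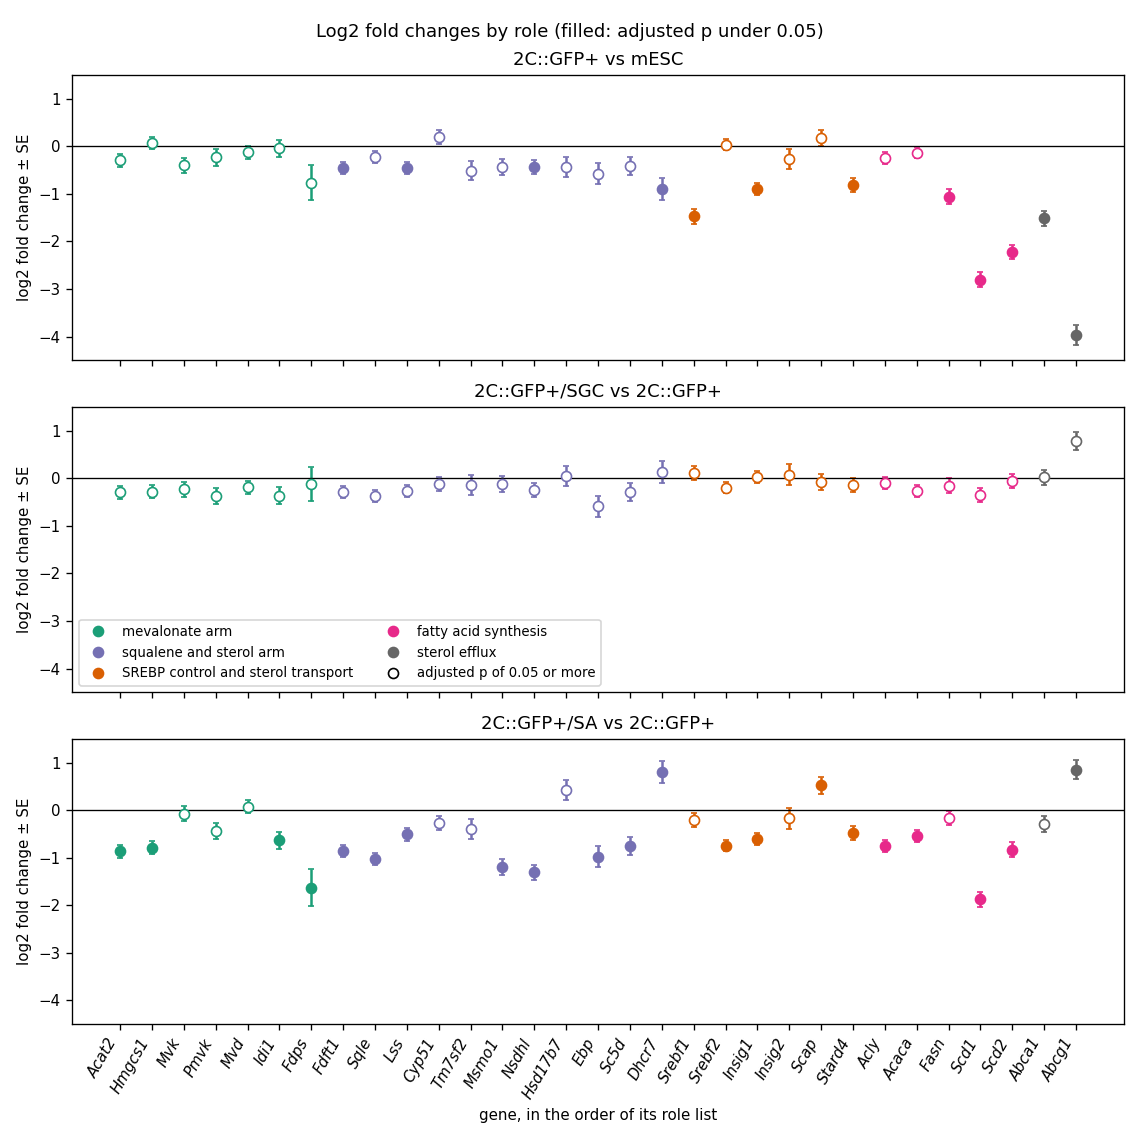
Log2 fold change ± SE of each of the 31 members, coloured by role, in 3 comparisons; filled points have an adjusted p under 0.05. In 2C::GFP+ against mESC the filled points lie in the sterol arm, SREBP control, fatty acid and efflux genes; in 2C::GFP+/SA against 2C::GFP+ they include 4 genes of the mevalonate arm, and in 2C::GFP+/SGC against 2C::GFP+ no point is filled.

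The size of the differences between 2C::GFP+/SGC and 2C::GFP+ can be read from their errors. The smallest adjusted p outside efflux was that of Sqle, at 106 ± 3.67 against 137 ± 5.2 CPM (SD, n = 2, log2 fold change -0.37 ± 0.12, adjusted p = 0.338). Ebp followed with -0.59 ± 0.22 (adjusted p = 0.41). Next came Scd1 with -0.36 ± 0.15 (adjusted p = 0.455), Fdft1 with -0.30 ± 0.13 (adjusted p = 0.465) and Acat2 with -0.30 ± 0.13 (adjusted p = 0.469). Srebf2, with -0.20 ± 0.12 (adjusted p = 0.609), had the smallest adjusted p among the regulators. All 7 mevalonate arm enzymes had a negative sign, from -0.37 to -0.12. These misses of the threshold do not show that the genes were at the same level in both groups.

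The comparisons of 2C::GFP+ with mESC and of 2C::GFP+/SA with 2C::GFP+/SGC have no library in common. Each had 12 members lower, and 5 were lower in both, 41.7% of each list: Fdft1, Nsdhl, Insig1, Scd1 and Scd2. Since 38.7% of all members were lower in each comparison, that share is near the one for the members as a whole and is not a result about which members moved. Over all tested genes, 296 were lower in both, 15.7% and 17.6% of the genes lower in each. Lower in the earlier comparison and not called lower in the later were Lss, Dhcr7, Srebf1, Stard4, Fasn, Abca1 and Abcg1. Lower in the later and not called in the earlier were Acat2, Hmgcs1, Fdps, Sqle, Msmo1, Srebf2 and Acly, and 12 members were lower in neither. Whether a member's 2 differences differ from each other was not tested.

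**Figure D4:**
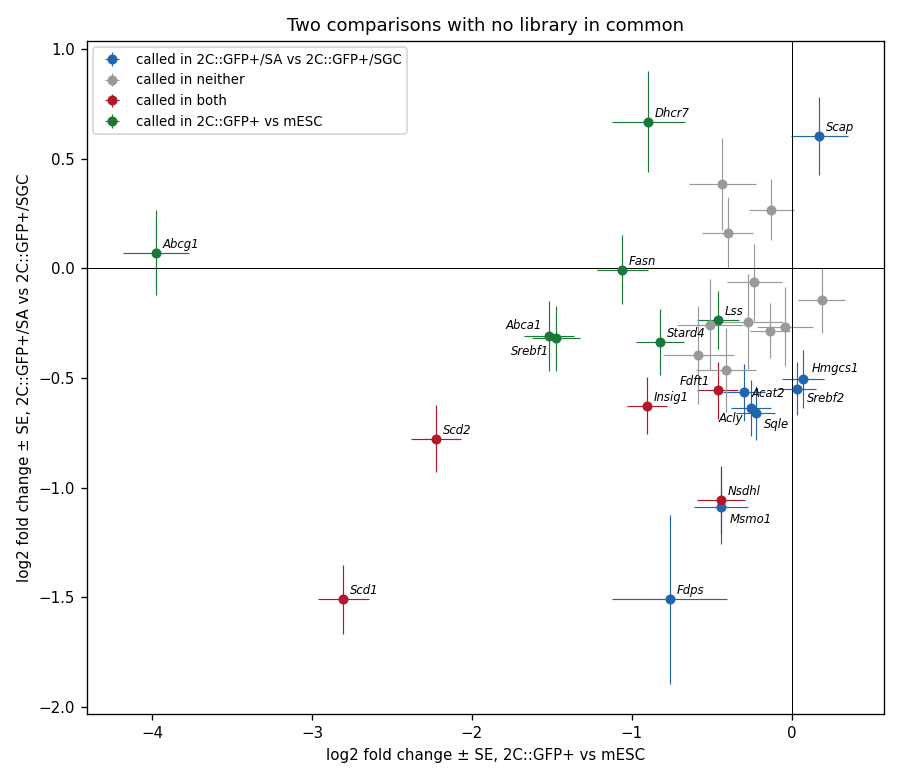
Each point is 1 of the 31 members, with its log2 fold change ± SE in 2C::GFP+ against mESC (x axis) and in 2C::GFP+/SA against 2C::GFP+/SGC (y axis); colours show in which comparison it was called. Scd1 and Scd2 are low on both axes, Abcg1 lies far left at a y value of 0.07, and Hmgcs1 and Srebf2 lie near 0 on the x axis and below 0 on the y axis.

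Of 24 further genes of these pathways, most that were called were also lower. In 2C::GFP+ against mESC 10 were lower and 1 (Elovl6) was higher, beside 9.12% lower and 15.2% higher of all tested genes. There were 10 lower and 1 higher (Ch25h) in 2C::GFP+/SA against 2C::GFP+, beside 13.8% and 14.9%. Against 2C::GFP+/SGC, 9 were lower and 1 (Elovl6) was higher in 2C::GFP+/SA, beside 8.18% and 7.92%. Against mESC, 15 were lower and 2 (Elovl6 and Ch25h) were higher in 2C::GFP+/SA, beside 20.1% and 25%. In 2C::GFP+/SGC against 2C::GFP+ 0 were called, beside 0% of all tested genes in either direction. Fads1 and Fads2, the desaturases of polyunsaturated fatty acids, were lower at both steps. Fads1 had 145 and 141 CPM for mESC, 65.1 and 61.9 for 2C::GFP+, 62.1 and 62.5 for 2C::GFP+/SGC, and 33.9 and 25.9 for 2C::GFP+/SA, with log2 fold changes of -1.17 ± 0.14 in 2C::GFP+ against mESC (adjusted p = 5.46e-05) and -1.05 ± 0.15 in 2C::GFP+/SA against 2C::GFP+/SGC (adjusted p = 0.000418). Fads2 gave -1.36 ± 0.15 (adjusted p = 2.21e-05) and -0.90 ± 0.15 (adjusted p = 0.0015) in the same comparisons.

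Mylip, an LXR target that marks lipoprotein receptors for degradation, had 4.44 ± 0.233 CPM in 2C::GFP+ against 19.9 ± 1.57 in mESC (SD, n = 2, log2 fold change -2.16 ± 0.25, adjusted p = 2.95e-05). Npc2, which moves cholesterol out of lysosomes, had 79.7 ± 1.3 CPM in 2C::GFP+/SA against 153 ± 11.9 in 2C::GFP+ (SD, n = 2, -0.95 ± 0.14, adjusted p = 0.000226). Lbr, a sterol reductase that doubles as a nuclear envelope protein, had 116 ± 10.1 against 206 ± 1.86 (SD, n = 2, -0.83 ± 0.12, adjusted p = 0.000246). The higher gene Ch25h, which makes an oxysterol, was at 0.416 and 0.308 CPM in 2C::GFP+/SA and at 0 in both mESC libraries, near the level that 3 reads give in the shallow libraries. Its call against 2C::GFP+ (adjusted p = 0.0474) ended with DESeq2 (adjusted p = 0.111) and without mESC replicate 2, 2C::GFP+ replicate 2, 2C::GFP+/SGC replicate 2 or 2C::GFP+/SA replicate 2 (adjusted p = 0.0561, 0.153, 0.0662 and 0.0788). Elovl6, which lengthens fatty acids, had 178 and 244 CPM for mESC, 295 and 329 for 2C::GFP+, 269.6 and 270.2 for 2C::GFP+/SGC, and 386.5 and 361 for 2C::GFP+/SA. It lost its call in 2C::GFP+ against mESC without mESC replicate 1 or 2C::GFP+ replicate 2 (adjusted p = 0.17 and 0.119). In 2C::GFP+/SA against 2C::GFP+/SGC (adjusted p = 0.0442) it lost it without either 2C::GFP+ library, either 2C::GFP+/SGC library or 2C::GFP+/SA replicate 1 (adjusted p = 0.0519 to 0.186).

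For uptake, 3 receptors on that list were read: Scarb1, Lrp8 and Vldlr. Scarb1, the HDL receptor, had 75.6 and 77.6 CPM for mESC, 51.5 and 42.7 for 2C::GFP+, 46.8 and 40.8 for 2C::GFP+/SGC, and 27.0 and 25.4 for 2C::GFP+/SA. It was lower in 2C::GFP+ than in mESC (-0.70 ± 0.15, adjusted p = 0.00344) and in 2C::GFP+/SA than in 2C::GFP+/SGC (-0.74 ± 0.15, adjusted p = 0.00473), the latter at an adjusted p of 0.0616 without 2C::GFP+/SGC replicate 1. Lrp8, an apolipoprotein E receptor, had 18.5 and 18.5, 12.2 and 15.4, 14.3 and 14.2, and 5.63 and 5.7 CPM in the same order. It was 2.51-fold lower in 2C::GFP+/SA than in 2C::GFP+/SGC (-1.33 ± 0.22, adjusted p = 0.00131), with -0.43 ± 0.21 in 2C::GFP+ against mESC (adjusted p = 0.159). Vldlr stayed between 0.759 and 4.62 CPM in all libraries and was called in no comparison.

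Several calls depend on single libraries. In 2C::GFP+ against mESC, 12 members were lower with all libraries. With 1 left out that count moved in both directions, and so did the count over all tested genes. Fdft1 lost its call without mESC replicate 2 or either 2C::GFP+ library (adjusted p = 0.0535 to 0.103), and Lss and Nsdhl lost theirs without any 1 of the 4 libraries compared (adjusted p = 0.0535 to 0.0931 and 0.0886 to 0.216). Dhcr7 lost its call without any of these 4 or without 2C::GFP+/SGC replicate 2 (adjusted p = 0.0739 to 0.254). In 2C::GFP+/SA against 2C::GFP+, Idi1 and Ebp lost theirs without 2C::GFP+ replicate 1 (adjusted p = 0.145 and 0.104), Idi1 also without 2C::GFP+/SA replicate 2 (adjusted p = 0.0947). Lss lost its call without 2C::GFP+ replicate 1 or 2C::GFP+/SA replicate 1 (adjusted p = 0.0657 and 0.0706), and Sc5d without 2C::GFP+ replicate 2 or 2C::GFP+/SA replicate 1 (adjusted p = 0.0756 and 0.0834). Stard4 lost it without either 2C::GFP+ library, 2C::GFP+/SGC replicate 1 or 2C::GFP+/SA replicate 2 (adjusted p = 0.148, 0.0709, 0.0506 and 0.139).

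In 2C::GFP+/SA against 2C::GFP+/SGC, Acat2, Hmgcs1, Fdps, Fdft1 and Srebf2 lost their calls without 2C::GFP+/SGC replicate 1. Their log2 fold changes in that fit were -0.58, -0.55, -1.41, -0.50 and -0.53. Fewer genes were also called lower over all tested genes in that fit, so these losses are not particular to the members. Hmgcs1 also missed the threshold when 2C::GFP+/SGC replicate 2 or 2C::GFP+/SA replicate 2 was left out (adjusted p = 0.124 and 0.153). Fdps and Fdft1 lost theirs without 2C::GFP+/SA replicate 2 (adjusted p = 0.0593 and 0.072), and Dhcr7 was then called higher (log2 fold change 1.05, adjusted p = 2.52e-06). In 2C::GFP+/SA against mESC, Mvk lost its call without mESC replicate 1 or 2C::GFP+/SA replicate 2 (adjusted p = 0.184 and 0.12), and without 2C::GFP+/SA replicate 1 Dhcr7 was called lower (-0.56, adjusted p = 0.0111). Nsdhl, Msmo1, Sqle, Insig1, Acly, Scd1 and Scd2 were called lower in 2C::GFP+/SA against 2C::GFP+/SGC whichever library was left out.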

How the data were processed

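The authors deposited whole-number read counts per gene and TPM values for 8 libraries. Per the submitters' processing notes, the tools were featureCounts 2.0.0, STAR 2.7.4a, Trim Galore 0.6.5 and FastQC 0.11.9, with builds mm10 and GRCm38. No label states the strand setting, the annotation release or the handling of multi-mapped reads. The deposited TPM values rest on 1 length per gene in all libraries (implied lengths varied by at most 1.3e-06 on the log2 scale over 11443 genes).

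Counts were fitted with edgeR 4.0.16 (R 4.3.3; filterByExpr, TMM, robust quasi-likelihood F test, 1 term per group, all 8 libraries, 4 residual degrees of freedom), with Benjamini-Hochberg adjustment over 20608 genes and calls at 0.05. SE was taken as |log2 fold change| / sqrt(F). Alternatives used DESeq2 1.42.0, limma 3.58.1 on log2(TPM + 1) and log2(TPM + 0.1), other scaling or filters, a replicate block and each library left out. Nothing says that replicates came from separate cultures, so p-values measure the spread between these libraries, which may be technical.

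Overlaps and shared 31-base stretches were read from GENCODE M21 (GRCm38). Members and lists were chosen with earlier results of these data known. All members were named. Full values were given for up to 2 per role list and comparison by smallest adjusted p; of the 24 further genes, up to 3 called per comparison were named, with the 3 uptake receptors and the higher genes added.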

Additional observations from a re-analysis of the deposited data

How the results depend on the processing

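Over 16 alternatives no member call was reversed. Called in every alternative were 7 of 12 members in 2C::GFP+ against mESC (Srebf1, Insig1, Fasn, Scd1, Scd2, Abca1, Abcg1), 11 of 21 in 2C::GFP+/SA against 2C::GFP+, 3 of 13 in 2C::GFP+/SA against 2C::GFP+/SGC (Nsdhl, Scd1, Scd2) and 24 of 26 in 2C::GFP+/SA against mESC. With limma on log2(TPM + 0.1), lower members numbered 7 in 2C::GFP+ against mESC and 4 in 2C::GFP+/SA against 2C::GFP+/SGC. Over all 20608 tested genes, 754 and 572 were lower in that fit, beside 1880 and 1686 in the edgeR fit. In the latter comparison the TPM scale moved the median of all genes from -0.02 to -0.13 (log2(TPM + 1)) and -0.17 (log2(TPM + 0.1)), and that of the members from -0.32 to -0.47 and -0.48; the cause of the lost calls was not tested. Leaving out 1 library reduced the lower members in some fits of 2C::GFP+/SA against 2C::GFP+/SGC. The lower genes over all tested genes were fewer in every such fit.

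Counts of higher members are small and moved more. For 2C::GFP+/SGC against 2C::GFP+ the count was 1 (Abcg1) with DESeq2 and without a filter, and 0 to 1 with 1 library left out. For 2C::GFP+/SA against 2C::GFP+ it was 1 with either limma fit and with only the 4 libraries compared, and 1 to 3 with 1 library left out (1 without 2C::GFP+ replicate 1 or 2). For 2C::GFP+/SA against 2C::GFP+/SGC it was 2 with DESeq2 and without a filter, 0 with either limma fit and 0 to 1 with 1 library left out. For 2C::GFP+/SA against mESC it was 0 with either limma fit and 0 to 1 with 1 library left out. With either limma fit, fewer of all tested genes were also called higher in the comparisons of 2C::GFP+/SA. The cause of these shifts was not tested.

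Same-numbered libraries deviated together only weakly (correlation over genes 0.0411 to 0.142 in 6 pairs of groups), and the labels do not say that numbers mark a shared batch, so the samples share only a number. With a replicate block the members lower and higher numbered 16 and 0 in 2C::GFP+ against mESC. In 2C::GFP+/SGC against 2C::GFP+ they numbered 0 and 0. For 2C::GFP+/SA they were 19 and 3 against 2C::GFP+, 12 and 1 against 2C::GFP+/SGC and 25 and 1 against mESC. Over all 20608 tested genes the block fit gave 2386 and 3684, 87 and 197, 3419 and 3411, 2281 and 2125, and 4634 and 5426 in the same order. Without the block these were 1880 and 3136, 0 and 0, 2838 and 3072, 1686 and 1633, and 4145 and 5143. More genes were thus called in both directions over all tested genes as well. With 2 libraries a group, and the shallow libraries at 12299931 to 19544870 reads, small differences were not resolved.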
